A study of Mus musculus with 6 samples.

Results

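The genes described here are 10 transcription factor genes of the Krüppel-like factor (KLF) and CCAAT/enhancer-binding protein (C/EBP) families, *Klf2*, *Klf4*, *Klf5*, *Klf6*, *Klf9*, *Klf10*, *Cebpa*, *Cebpb*, *Cebpd* and *Cebpg*. They were chosen by family and symbol, with earlier results of these data known, and do not cover all genes of these families. All 10 were found among the 20327 gene symbols of the tag-count data. Male C57BL/6 mice aged 9 to 15 weeks and carrying the *Il11-Egfp* reporter drank 1.5% dextran sulfate sodium (DSS) for 5 days, which injures the colonic epithelium, and then regular water. The reporter is a bacterial artificial chromosome in which EGFP is driven by the *Il11* gene, kept as 1 selected mouse line. On day 7, cells of the colon negative for Ter119, CD45, CD31 and EpCAM were sorted into EGFP-Positive cells (IL-11+ fibroblasts) and EGFP-Negative cells (IL-11- fibroblasts), with 3 libraries per group. Both groups therefore share strain, reporter, DSS treatment, day and gate, and differ in EGFP. The comparison asks how cells that express the *Il11* reporter in colitis differ from the other sorted stromal cells. Polyadenylated RNA was read as tags from the 5′ side of transcripts (5′Tag-seq), and the values are numbers of tags per gene. The IL-11- libraries held 1057170, 1078179 and 1169817 tags and the IL-11+ libraries 1046538, 1022851 and 1049048 tags. Values of a group are given below in the order of replicates 1, 2 and 3. At this depth 3 tags, taken as the floor of detection, correspond to 2.56 to 2.93 CPM, the unit in which tags are scaled to each library's total, and floors cover counting error only.

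KLF proteins bind GC-rich and CACCC sequences through zinc fingers at their C terminus and act as activators or repressors, depending on the factor and its partners. *Klf2* and *Klf4* are known as shear-stress genes of endothelium, and *Klf4* also as a reprogramming factor and a regulator of smooth muscle and epithelial differentiation. C/EBP proteins are leucine zipper factors that bind as dimers and drive acute-phase, cytokine and adipocyte genes, and *Cebpb* and *Cebpd* are themselves induced by inflammatory cytokines.

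Among these genes, *Klf2* and *Klf4* were lower in IL-11+ fibroblasts, by 2.90-fold and 2.58-fold compared with IL-11- fibroblasts. *Cebpd* was 1.91-fold and *Klf9* 1.52-fold lower in the fitted means, which left both under the 2-fold threshold of a call. *Klf10* had the highest fitted difference in the other direction, 1.65-fold, and it was not called. A gene was tested when 3 or more of the 6 libraries held 10 or more of its tags, which was so for 9334 genes, among them 9 of the 10 described here. It was called when edgeR's quasi-likelihood test gave a Benjamini-Hochberg adjusted p under 0.05 and the fold change was over 2. Of the 5 tested KLF genes, 2 were called lower, where 6.37% of all tested genes were called lower, 3.44% higher and 9.81% in either direction. None of the 5 was called higher by edgeR, DESeq2 or the exact test, with 1 (*Klf10*) at an unadjusted p under 0.05. Of the 4 tested C/EBP genes, 0 were called in either direction by the same 3 tests, and 1 (*Cebpd*) had an unadjusted p under 0.05. The groups did not overlap in 3 of 5 KLF genes, all lower in IL-11+ fibroblasts, and in *Cebpd* (lower) and *Cebpg* (higher), against 31.2% of all tested genes. Medians of the log2 fold change were -0.60 for the KLF genes, 0.28 for the C/EBP genes and -0.01 for all tested genes.

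**Figure D1:**
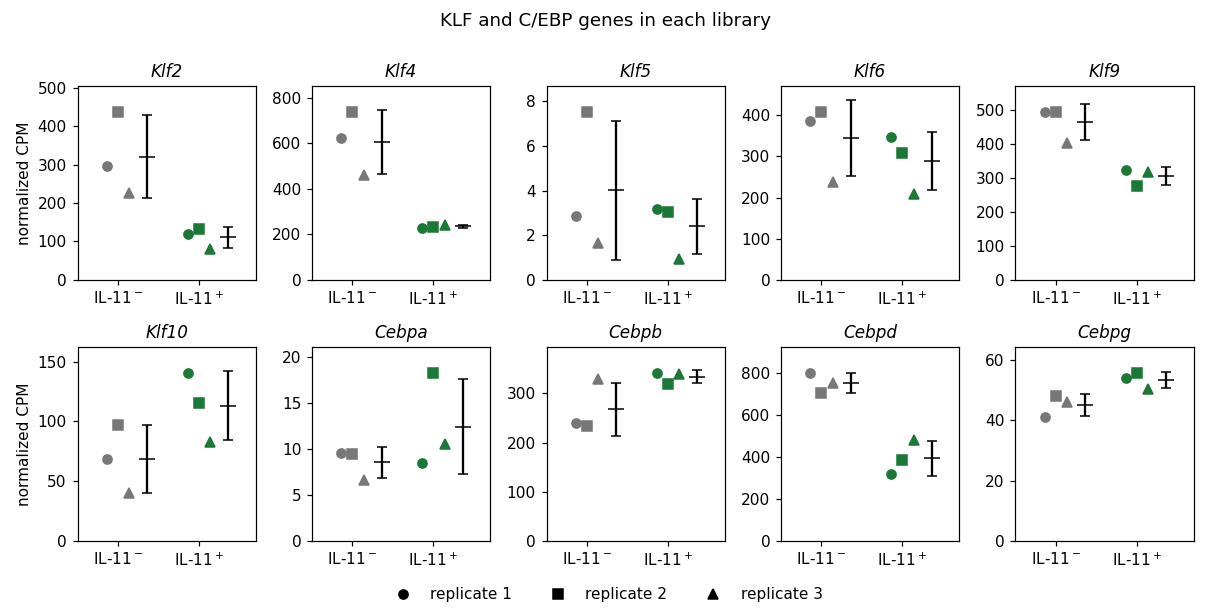
Normalized CPM (vertical axes, from 0) of the 10 KLF and C/EBP genes in each library of IL-11- (grey) and IL-11+ (green) fibroblasts, with symbols for replicates 1 to 3 and black bars for the mean and SD of 3 libraries. *Klf2*, *Klf4*, *Klf9* and *Cebpd* have all IL-11+ libraries below all IL-11- libraries, and *Klf4* lies between 229 and 242 in IL-11+ fibroblasts.

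*Klf2*, a quiescence factor of endothelium and lymphocytes, lies on chromosome 8 (72319033 to 72321656, plus strand, GRCm38) with 3 exons. It had 311, 465 and 276 tags in the IL-11- libraries against 113, 131 and 83 in the IL-11+ libraries. Replicate 2 was the highest library of each group and replicate 3 the lowest, and the lowest IL-11- library was still above the highest IL-11+ library. Scaled for library size and composition, its mean normalized CPM fell from 321 ± 108 to 111 ± 28.1 (SD, n = 3; log2 fold change -1.53, SE 0.234, edgeR adjusted p = 0.000125). Between same-numbered libraries the log2 ratio was -1.31, -1.72 and -1.52.

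*Klf4* is known to hold down contractile genes in smooth muscle cells and to control goblet cell differentiation in the colon. It lies on chromosome 4 (55527143 to 55532466, minus strand) with 5 exons. Its tags numbered 652, 783 and 559 in the IL-11- libraries against 216, 229 and 254 in the IL-11+ libraries. The IL-11- libraries spread widely and the IL-11+ libraries lay close together, with no overlap. Mean normalized CPM fell from 606 ± 140.0 to 235 ± 6.88 (SD, n = 3; log2 fold change -1.37, SE 0.185, edgeR adjusted p = 3.35e-05). The log2 ratio of same-numbered libraries was -1.44, -1.67 and -0.92, so that replicate 3 showed the smallest difference. In bulk libraries such as these, fewer cells that express a gene and less RNA per cell cannot be told apart.

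Contractile genes and part of the pericyte markers moved with *Klf2* and *Klf4*, where 6.37% of all tested genes were called lower. Of 9 smooth muscle contractile genes, 8 fell in IL-11+ fibroblasts (*Acta2*, *Tagln*, *Myh11*, *Cnn1*, *Des*, *Actg2*, *Myl9* and *Lmod1*), with log2 fold changes from -5.35 (*Cnn1*) to -3.59 (*Des*) and a median of -4.04 over the 9. *Cnn1* had 0, 1 and 5 tags in the IL-11+ libraries, and its log2 fold change ran from -7.10 to -4.82 under the alternatives that tested it. The 9 genes summed to 2671, 3301 and 4390 CPM in IL-11- and 119, 179 and 378 CPM in IL-11+ libraries. *Myh11*, a smooth muscle myosin, was the most abundant in IL-11- libraries. In IL-11+ libraries *Tagln* had the highest mean (51.4 normalized CPM, against 39.2 for *Myh11*). Of 6 pericyte markers, 3 fell (*Rgs5*, *Notch3* and *Cspg4*), and the list summed to 2603, 2194 and 2106 CPM in IL-11- and 963, 861 and 793 CPM in IL-11+ libraries. It was led by *Rgs5* in IL-11- and by *Abcc9* in IL-11+ libraries. Of the same list, *Abcc9* and *Kcnj8* moved the other way, with log2 fold changes of 0.66 (no overlap) and 0.71 (overlap), and neither was called under any alternative with a fold threshold. The interstitial cell of Cajal genes *Kit*, *Ano1* and *Etv1* also fell, from sums of 269, 165 and 268 CPM to 19.1, 19.6 and 50.5 CPM. *Etv1* was under the fold threshold, at -0.93, without IL-11- replicate 1. The part of these cell types in the fall of *Klf2* and *Klf4* was not tested. Endothelium, where *Klf2* is best known, was near 0 in both groups by its markers. The 5 blood endothelial markers analysed summed to 8.51, 6.49 and 1.71 CPM in IL-11- and 0, 1.96 and 1.91 CPM in IL-11+ libraries. *Emcn*, the most abundant over all 6 libraries, had 7, 2 and 1 tags in the IL-11- libraries and 0 in each IL-11+ library. *Pecam1* had 1 tag in the sum of all 6 libraries.

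*Klf2* and *Klf4* fell together, and *Klf9* was lower in every IL-11+ library, so the sequence upstream of these 3 genes is shown from RefSeq (GRCm38.p6), from which promoters of 250 bases before to 50 bases after the start were used for 7 of the 10 genes. Those of *Klf5*, *Klf10* and *Cebpd* were not analysed here. Positions are counted from the start used for these promoters, which for *Klf2* and *Klf4* differs from the gene boundary given above. The stretches stop short of annotated exons. That of *Klf2* covers -200 to -30 (chr8:72318862-72319032, plus strand), that of *Klf4* -200 to -1 (chr4:55532476-55532675, minus strand) and that of *Klf9* -200 to -1 (chr19:23141026-23141225, plus strand). Capitals mark matches to 9 motifs searched on both strands.
Klf2: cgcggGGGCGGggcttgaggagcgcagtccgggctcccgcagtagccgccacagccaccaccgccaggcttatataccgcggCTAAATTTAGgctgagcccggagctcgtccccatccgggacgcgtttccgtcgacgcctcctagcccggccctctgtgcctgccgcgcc
Klf4: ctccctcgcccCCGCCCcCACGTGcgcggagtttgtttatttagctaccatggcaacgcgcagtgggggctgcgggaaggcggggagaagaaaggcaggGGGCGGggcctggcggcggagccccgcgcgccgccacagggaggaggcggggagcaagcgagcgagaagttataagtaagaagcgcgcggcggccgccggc
Klf9: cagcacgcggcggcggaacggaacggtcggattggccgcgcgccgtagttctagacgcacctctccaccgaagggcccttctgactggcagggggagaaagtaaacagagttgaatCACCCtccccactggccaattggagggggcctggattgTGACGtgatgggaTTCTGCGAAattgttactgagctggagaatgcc
In *Klf2* the capitals are a GC box (GGGCGG) at -195 and a MEF2 element at -118. In *Klf4* they are GC boxes at -189 and -101 and an E-box (CACGTG) at -182. In *Klf9* they are a KLF motif (CACCC) at -84, TGACG, the first bases of a cyclic AMP response element, at -46 and a STAT motif (TTCNNNGAA) at -33. Over all 32851 RefSeq promoters, 57.5% held CACCC, 35.7% GGGCGG, 20.8% TGACG, 8.3% TTCNNNGAA, 7.15% CACGTG and 3.19% the MEF2 element. Among the 7 genes with a promoter, 4 held CACCC, 5 GGGCGG and 4 TGACG, while CACGTG was in *Klf4* and *Klf6*, TTCNNNGAA in *Klf9* and the MEF2 element in *Klf2*. The C/EBP motif TTGCNNAA (10.8% of promoters), TGACGTCA (1.79%) and the CArG box (1.63%) were in none of the 7 windows. TGACG is part of TGACGTCA. A match describes these letters only, and the motifs were chosen with the sequences in view.

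*Klf9*, a glucocorticoid- and thyroid hormone-induced factor (chromosome 19, 23141226 to 23168134), had 518, 525 and 491 tags in the IL-11- libraries against 305, 272 and 334 in the IL-11+ libraries. Each IL-11+ library was below each IL-11- library, and IL-11- replicate 3 was the lowest of its group once scaled. Mean normalized CPM was 464 ± 52.8 against 306 ± 25.9 (SD, n = 3; log2 fold change -0.60, SE 0.164, edgeR adjusted p = 0.0169). The fold change of 1.52 was under the threshold, so *Klf9* was not called. Its adjusted p from edgeR was over 0.05 without IL-11- replicate 1 (0.0612), IL-11- replicate 2 (0.0876) or IL-11+ replicate 2 (0.103). *Klf6*, an injury-induced factor and tumor suppressor (chromosome 13, 5861482 to 5870394), had 404, 434 and 290 tags in the IL-11- libraries against 327, 303 and 220 in the IL-11+ libraries. The groups overlapped, and replicate 3 was the lowest in both. Its log2 fold change was -0.26, with a 95% interval from -0.71 to 0.20.

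*Klf10*, first known as the TGF-β-inducible early gene (chromosome 15, 38291463 to 38300706), had 72, 103 and 49 tags in the IL-11- libraries against 133, 114 and 87 in the IL-11+ libraries. Replicate 3 was again the lowest in both groups, and IL-11+ replicate 3 lay below IL-11- replicate 2, so the groups overlapped. Mean normalized CPM was 68.7 ± 28.4 against 113 ± 29.1 (SD, n = 3), and the log2 fold change of 0.73 had a 95% interval from 0.19 to 1.27 (edgeR adjusted p = 0.0662). Same-numbered libraries gave log2 ratios of 1.04, 0.25 and 1.04. Without IL-11- replicate 2, the highest of its group, the log2 fold change was 1.05 and *Klf10* was called higher (edgeR adjusted p = 0.0222). Its adjusted p was also under 0.05 without IL-11+ replicate 3 (0.0207, log2 fold change 0.91) and with no filter on low genes (0.00309, log2 fold change 0.77), under the fold threshold in both. *Klf5*, a factor of proliferating crypt epithelium and smooth muscle (chromosome 14, 99298691 to 99315036), had 3, 8 and 2 tags in the IL-11- libraries against 3, 3 and 1 in the IL-11+ libraries. At or under the floor of 3 tags in 5 of 6 libraries, it was not tested, and a difference was not detectable at this depth.

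*Cebpd*, an acute-phase factor and early driver of adipocyte differentiation (chromosome 16, 15887286 to 15891031, 1 exon), had 840, 750 and 919 tags in the IL-11- libraries against 299, 377 and 506 in the IL-11+ libraries. All IL-11+ libraries were below all IL-11- libraries, and IL-11+ replicate 3 came nearest to them. Mean normalized CPM was 754 ± 47.7 against 394 ± 83.4 (SD, n = 3; log2 fold change -0.94, SE 0.178, edgeR adjusted p = 0.00103). The 1.91-fold difference was just under the 2-fold threshold. Without IL-11+ replicate 3 the log2 fold change was -1.10, and scaled by library size only it was -1.01, and both fits called *Cebpd* lower. Log2 ratios of same-numbered libraries were -1.34, -0.88 and -0.65.

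*Cebpb*, which encodes the C/EBP form most tied to *Il6* and acute-phase transcription (chromosome 2, 167688915 to 167690418, 1 exon), had 252, 247 and 402 tags in the IL-11- libraries against 323, 314 and 357 in the IL-11+ libraries. IL-11- replicate 3 held the most tags of all 6 libraries, and in normalized CPM it lay among the IL-11+ libraries. With mean normalized CPM of 268 ± 54.1 against 334 ± 13.1 (SD, n = 3), the log2 fold change was 0.32 with a 95% interval from -0.05 to 0.68. *Cebpg*, a widely expressed partner without a classical activation domain (chromosome 7, 35046422 to 35056573), had 43, 51 and 56 tags in the IL-11- libraries against 51, 55 and 53 in the IL-11+ libraries. In normalized CPM each IL-11+ library exceeded each IL-11- library, at 53.5 ± 2.70 against 45.0 ± 3.59 (SD, n = 3). The log2 fold change was 0.25, with a 95% interval from -0.18 to 0.68. *Cebpa*, which drives terminal adipocyte and myeloid differentiation (chromosome 7, 35119293 to 35121928), had 10, 10 and 8 tags in the IL-11- libraries against 8, 18 and 11 in the IL-11+ libraries. The groups overlapped, and the 95% interval of the log2 fold change ran from -0.34 to 1.44. Of the 50-nt windows in the first 300 nt of annotated transcripts, 24 of 796 of *Cebpg* also occur in the overlapping gene *Gm44836*, so a few of its tags can be shared, and none of the other 9 genes shared a window.

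Of the 6 tested genes among the other KLF genes (*Klf3*, *Klf7*, *Klf11*, *Klf12*, *Klf13* and *Klf16*), 0 were called by edgeR, DESeq2 or the exact test and 1 had an unadjusted p under 0.05. That gene was *Klf7*, with 140, 153 and 176 tags in the IL-11- libraries against 104, 109 and 101 in the IL-11+ libraries, no overlap and a log2 fold change of -0.41. The other five had log2 fold changes from -0.10 to 0.36, every 95% interval including 0. *Klf13* changed sign, to -0.01, when scaled by library size only. *Klf15* had too few tags to be tested, with 22, 8 and 9 in the IL-11- libraries against 4, 2 and 3 in the IL-11+ libraries and no overlap. Of the SP factors, zinc finger relatives of the KLF family, *Sp1*, *Sp3* and *Sp4* were tested and 0 were called by the 3 tests. *Sp4* had 39, 33 and 33 tags in the IL-11- libraries against 19, 16 and 13 in the IL-11+ libraries, and its log2 fold change of -0.97 (edgeR adjusted p = 0.0323) was under the threshold, which it passed without IL-11- replicate 3 (-1.09) or IL-11+ replicate 1 (-1.13), and with library size only (-1.05) or, barely, a filter at 30 tags. Its adjusted p was over 0.05 in DESeq2 (0.101) and in edgeR without IL-11- replicate 1 (0.126), IL-11- replicate 2 (0.0844), IL-11+ replicate 2 (0.0900) or IL-11+ replicate 3 (0.122). *Ddit3* (CHOP), the C/EBP relative induced by endoplasmic reticulum stress, had 162, 161 and 165 tags in the IL-11- libraries against 91, 108 and 104 in the IL-11+ libraries. Its log2 fold change of -0.53 (edgeR adjusted p = 0.0344) was under the threshold as well, and its adjusted p was over 0.05 in DESeq2 (0.108), in edgeR with no filter on low genes (0.103) and without IL-11- replicate 1 (0.0880), IL-11- replicate 2 (0.107), IL-11+ replicate 1 (0.114), IL-11+ replicate 2 (0.0673) or IL-11+ replicate 3 (0.0862). *Klf14*, *Klf17*, *Cebpe* and *Sp5* were not analysed here.

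**Figure D2:**
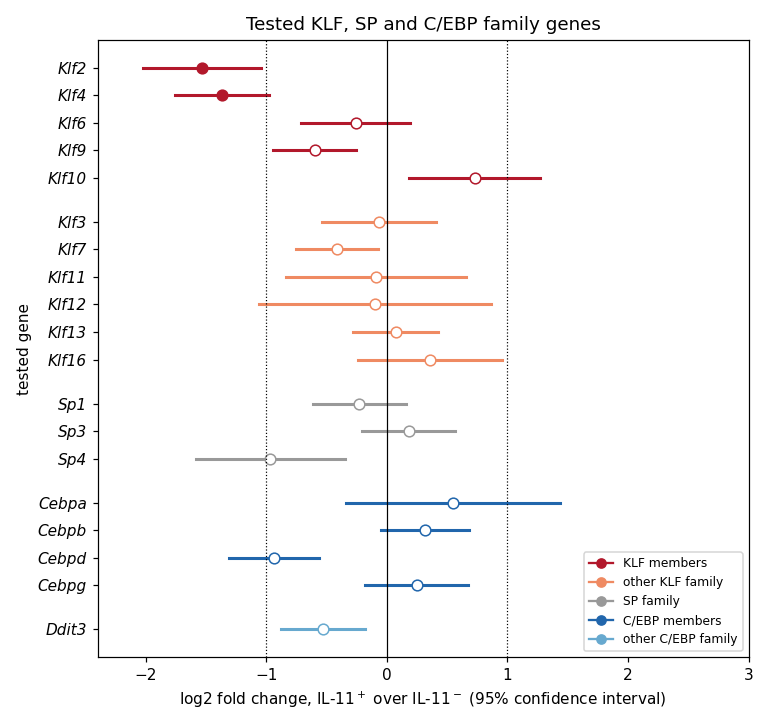
Log2 fold change of IL-11+ over IL-11- fibroblasts (horizontal axis) with its 95% confidence interval for each tested KLF, SP and C/EBP family gene (vertical axis), with filled points for called genes and dotted lines at the 2-fold thresholds of -1 and 1. *Klf2* and *Klf4* are the filled points, at -1.53 and -1.37, and *Cebpd* lies at -0.94.

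Leucine zipper partners of C/EBP proteins and Tribbles genes, which target C/EBPα for degradation, gave 6 tested genes, with 1 called. The share called in either direction over all tested genes was 9.81%. *Atf3*, a stress-induced repressor, had 1152, 1487 and 780 tags in the IL-11- libraries against 219, 303 and 155 in the IL-11+ libraries. As in *Klf2*, replicate 2 was the highest of each group and replicate 3 the lowest, with no overlap. *Atf3* fell with a log2 fold change of -2.19 (SE 0.27, edgeR adjusted p = 1.27e-05). *Atf4*, *Atf5*, *Nfil3*, *Trib1* and *Trib2* had log2 fold changes from -0.15 to 0.26 with intervals that include 0.

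Textbook targets of the C/EBP and KLF factors were compared in the same way. Over all tested genes, 3.44% were called higher and 6.37% lower. Of 7 tested inflammatory C/EBP targets, 4 rose in IL-11+ fibroblasts (*Saa3*, *Lcn2*, *Ptgs2* and *Csf3*), with log2 fold changes of 3.11, 2.68, 2.10 and 3.35 and a median of 2.10 over the 7. *Saa3*, an acute-phase protein gene, had 2062, 2335 and 806 tags in the IL-11- libraries against 15835, 15721 and 9439 in the IL-11+ libraries. *Cebpb* was not called, with log2 ratios of 0.51, 0.45 and 0.04 between same-numbered libraries, and *Cebpd* was lower in every IL-11+ library. The part of *Cebpb* and *Cebpd* in the rise of these 4 targets was not tested. *C3*, the other abundant gene of the list, had a log2 fold change of -0.52 and was not called. Of 5 tested adipocyte targets, *Fabp4* and *Cd36* fell, and the median was -0.06. *Lpl* and *Scd1*, the most abundant over all libraries together, were at 0.02 and 0.20, neither called, with *Lpl* at -0.05 when scaled by library size only. In IL-11- libraries the mean of *Fabp4* was above that of *Scd1* (68.8 and 55.4 normalized CPM). *Cd36*, a fatty acid receptor, had 10, 15 and 11 tags in the IL-11- libraries against 0 in each IL-11+ library, at least 10.7-fold lower against a floor of 3 tags over the group. Of 7 tested KLF targets, 3 fell (*Cdkn1a*, *Ccnd1* and *Pdgfa*, with log2 fold changes of -1.26, -1.92 and -1.58), and the median, that of *Thbd*, was -0.27. This list was not split by the direction in which KLF factors act on its genes, so its count and median have no single direction to be read against. *Cdkn1a*, the p21 cell cycle inhibitor, had 601, 542 and 588 tags in the IL-11- libraries against 196, 194 and 259 in the IL-11+ libraries. *Ccnd1*, with 2 to 27 tags per library, was not past the adjusted p without IL-11- replicate 2 (0.0535 from edgeR, on the genes tested in all 6 libraries).

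Some of the pathways that induce these factors were read from their response genes. The counts called stand beside shares of 6.37% lower and 3.44% higher over all tested genes. Of 12 immediate early and heat shock genes, a class that includes genes induced when tissue is dissociated, 3 were called lower (*Atf3*, *Junb* and *Zfp36*), 11 had groups without overlap (against 31.2% of all tested genes), those being lower in IL-11+ fibroblasts, the groups overlapped in *Jun* (log2 fold change -0.22), and the median log2 fold change was -0.85. The list summed to 29558, 30551 and 25048 CPM in IL-11- and 14422, 17371 and 15936 CPM in IL-11+ libraries, led by *Egr1*, with log2 fold changes of -0.54 for *Egr1* and -0.95 for *Fos*, neither called. *Fos* was called without IL-11- replicate 3 (-1.07) or IL-11+ replicate 2 (-1.02), and when scaled by library size only (-1.03). The part of this class in the values of *Klf2*, *Klf4* and *Cebpd* was not tested. *Junb* was near the threshold, at -1.01, and at -0.96, -0.98 and -0.99 without IL-11- replicate 2, IL-11+ replicate 1 or IL-11+ replicate 3, and at -0.97 with no filter on low genes. Glucocorticoid response genes, a class that includes *Klf9* and *Cebpd*, gave 1 called gene of 6 and a median of -0.18. That gene, *Tsc22d3*, had 169, 106 and 46 tags in the IL-11- libraries against 45, 31 and 10 in the IL-11+ libraries. In normalized CPM the groups overlapped, with IL-11+ replicate 1 (47.7) above IL-11- replicate 3 (37.8). The log2 fold change of *Tsc22d3* was -1.76 (edgeR adjusted p = 0.00916), and without IL-11- replicate 1 it was -1.24 (edgeR adjusted p = 0.0797). DESeq2 gave *Tsc22d3* an adjusted p of 0.183. The most abundant genes of the list, *Zbtb16* and *Per1*, were at -0.80 and -0.23 and not called, and *Zbtb16* was called without IL-11- replicate 3 (-1.15). STAT3 response genes, a class that includes *Cebpb* and *Cebpd*, gave 1 called gene of 6 and a median of -0.11. That gene, *Junb*, is also 1 of the 3 called immediate early genes. *Socs3*, among the most abundant of them, had a log2 fold change of -0.84 and was called only without IL-11- replicate 3 (-1.06) among the fits with a fold threshold.

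Fibroblast markers were abundant in both groups, with *Dcn* the most abundant gene. Of these 8 markers, 2 rose (*Col3a1* and *Pdpn*), where 3.44% of all tested genes were called higher. Without overlap, 5 of the 8 were higher in IL-11+ fibroblasts and 1 was lower, against 31.2% of all tested genes in either direction. The lower gene, *Lum*, had a log2 fold change of -0.64 and was not called. *Col3a1* and *Pdpn* were both under the fold threshold without IL-11- replicate 1 (0.83 and 0.94) and when scaled by library size only (0.96 and 0.97), and *Pdpn* also without IL-11+ replicate 1 (0.97). The 8 summed to 20727, 20422 and 24526 CPM in IL-11- and 37030, 31641 and 29542 CPM in IL-11+ libraries. Leukocyte markers summed to 25.0 to 31.2 CPM in IL-11- and 27.6 to 70.7 CPM in IL-11+ libraries. *Cd14*, the 1 tested, rose, with 10, 4 and 5 tags in the IL-11- libraries against 36, 31 and 13 in the IL-11+ libraries. The other leukocyte markers had too few tags to be tested and went both ways. *Ptprc* had 1, 2 and 7 tags in the IL-11- against 0, 3 and 0 in the IL-11+ libraries, and *S100a8* 2, 4 and 2 against 13, 1 and 12. Epithelial, lymphatic and mesothelial markers summed to at most 19.7, 12.0 and 11.1 CPM in any library, led over all libraries together by *Krt8*, *Prox1* and *Upk3b*. Erythroid genes, led by *Hbb-bs*, summed to 76.6, 0 and 244 CPM in IL-11- and 12.4, 1.96 and 14.3 CPM in IL-11+ libraries, and the part of these cells in the KLF and C/EBP values was not tested.

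Genes with the most similar pattern over the 6 libraries were found by Pearson correlation of log2 normalized CPM, among genes that averaged 30 tags or more. For *Klf4*, the KLF gene with the smallest p, they were *Zbtb44* (r = 0.999), *Gabra3* (r = 0.996) and *Sptbn1* (r = 0.996). For *Cebpd*, they were *Igfbp6* (r = 0.997), *Zbtb20* (r = 0.996) and *Zfhx4* (r = 0.995). The points are 6 libraries in a pair of groups, so these r values mostly describe the difference between groups. *Igfbp6*, for example, had 319, 228 and 299 tags in the IL-11- libraries against 12, 24 and 72 in the IL-11+ libraries, with IL-11+ replicate 3 the highest of its group as in *Cebpd*.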

How the data were processed

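The deposited values are tag counts per gene symbol, without normalization. Per the submitters' processing notes and the study's methods, the authors used cutadapt 1.18 for trimming, Bowtie2 2.2.5 for mapping to mm10 transcripts (a single orientation) and R 3.5.1, and counted tags per gene. How tags matching several genes were treated is not given in the sources used here. Libraries were grouped by their labels. Counts were compared in R 4.3.3 with edgeR 4.0.16 (TMM, glmQLFit, glmQLFTest, Benjamini-Hochberg adjustment over all tested genes), which was tested on simulated data. The fold and adjusted p thresholds follow the methods, whose printed filter at 10 tags was read as keeping genes with 10 or more. The methods give no number of libraries for it, and 3 of 6 was chosen here. According to the methods 3 mice were used, and libraries with the same number deviated together from their group means (r = 0.232, 0.208 and 0.271 over 5064 genes, which are not independent replicates), so the numbers were taken as pairs in an alternative fit. Alternatives were RLE, library size only, iterative TMM, the exact test, DESeq2 1.42.0, other filters, the replicate block, adjusted p alone and each library left out.

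Named genes are the 10 members, tested relatives and partners, called and the 2 most abundant genes of each other list, the leading gene of each marker list and the genes of most similar pattern. Abundance for this choice is that over all libraries together. *Kit*, *Etv1*, *Notch3*, *Cspg4*, *Pecam1*, *Col3a1*, *Pdpn*, *Abcc9*, *Kcnj8*, *Lum*, *Jun*, *Klf15*, *Ptprc* and *S100a8* were named after their values were seen. Members and lists were chosen with earlier results of these data known. Results of some lists are not reported here. Gene positions come from GENCODE M21 (GRCm38).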

Additional observations from a re-analysis of the deposited data

How the results depend on the processing

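*Klf2* and *Klf4* were called lower under each of the 21 alternatives, with log2 fold changes from -1.75 to -1.23 and from -1.55 to -1.20. *Klf6*, *Cebpa*, *Cebpb* and *Cebpg* were called under none of those that tested them and kept their direction. *Klf9* and *Cebpd* passed on the adjusted p alone, without a fold threshold. The adjusted p of *Cebpd* was under 0.05 in each alternative, and that of *Klf9* was over it without IL-11- replicate 1, IL-11- replicate 2 or IL-11+ replicate 2 (0.0612, 0.0876 and 0.103 from edgeR). With the replicate number as a block, 337 and 648 genes were tested genes called higher and tested genes called lower, the counts of KLF and C/EBP genes were the same, and no call of a member changed, although the adjusted p of *Klf10* went from 0.0662 to 0.00153 (edgeR) at a fold change still under 2.

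With a filter at 30 tags, tested genes called higher numbered 208 and tested genes called lower 326, where fewer genes are tested, and by adjusted p alone 638 were higher and 812 lower. Leaving out 1 library gave 341 to 579 lower genes (341 without IL-11- replicate 1, 355 without IL-11- replicate 2, where fewer genes are tested), 0 to 1 KLF genes called higher (*Klf10*) and 0 to 1 C/EBP genes called lower (*Cebpd*). The C/EBP count was also 1 with library size only and with adjusted p alone. On the genes tested in all 6 libraries, an alternative chosen after seeing the data, 483 to 580 genes were lower (483 and 508 without IL-11- replicates 1 and 2), the C/EBP count was again 1 without IL-11+ replicate 3, and the KLF count higher was 1 without IL-11- replicate 2. The cause of the changes in the KLF and C/EBP counts was not tested.

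Genes near 0 changed sign. Leaving out 1 library gave log2 fold changes of -0.29 to 0.080 for *Klf3*, -0.41 to 0.18 for *Klf11*, -0.38 to 0.11 for *Klf12*, -0.058 to 0.16 for *Trib1* and -0.15 to 0.17 for *Lpl*, with the sign changed by the libraries named next, except that *Klf11* kept its sign without IL-11- replicate 2 and *Klf12* was not tested without IL-11- replicate 3. On the genes tested in all 6 libraries, *Klf3* was 0.10, 0.017 and 0.065 without IL-11- replicate 2, IL-11+ replicate 1 or IL-11+ replicate 2. *Klf11* was 0.17, 0.0086 and 0.18 without IL-11- replicate 1, IL-11- replicate 2 or IL-11+ replicate 3. *Klf12* was 0.50 and 0.11 without IL-11- replicate 3 or IL-11+ replicate 3, *Trib1* -0.039 without IL-11- replicate 3, and *Lpl* -0.10 and -0.16 without IL-11- replicate 3 or IL-11+ replicate 2. With library size only *Klf13* was -0.011 and *Lpl* -0.049, and *Lpl* was -0.012 with the filter at 30 tags. Depth limits *Klf5* and *Cebpa*, which had at most 8 and 18 tags in any library.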
